A study of Mus musculus with 30 samples.

Results

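A total of 106 of the 22477 genes in the RNA-seq table were lost early after 2i/LIF withdrawal and regained by 72 h. They were chosen by their own expression values. A member had 10 FPKM or more at 0 h, a mean of 36 and 48 h (the 36/48 h mean) of no more than 50% of its 0 h value, and a 72 h value of 2 times that mean or more. FPKM are fragments per kilobase of transcript, scaled to the mapped fragments of a library. Nanog, Nodal, Lefty1, Lefty2 and the genes named Slc, Zfp or Col followed by a digit were left out by name, which removed 7 of the 113 genes past the thresholds.

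The cells were mouse secondary iPSCs, induced pluripotent stem cells that carry dox-inducible transgenes for Oct4, Sox2, Klf4 and cMyc (OSKM), with GFP at the endogenous Nanog locus and a constitutive nuclear RFP, and every condition shared these alleles. The line was kept on CF1 MEF feeders (mouse embryonic fibroblasts) in serum/LIF, the 0 h cells were in 2i/LIF, and differentiation was started by withdrawal of 2i/LIF. For the colony-forming assay, the study's methods give gelatin-coated plates for the withdrawal and CF1 MEFs for the cells seeded anew, and do not say separately whether the cells for RNA were grown so. Polyadenylated RNA was taken 0, 24, 36, 48, 60, 72 and 96 h after withdrawal, without dox. At 0, 24, 48 and 96 h, cells were also seeded anew in serum/LIF and kept there for 48 h, either without dox (–dox) or with it, which switches OSKM on (+dox). These 15 conditions had 2 replicates each, 30 samples in all, for which the table holds 1 value per gene and condition. The depth behind a value is therefore unknown, and no difference given here carries an error, a test or a p-value. A member is called higher or lower where its 2 values were 2-fold or more apart, with the higher of them at 1 FPKM or more. Each count of members stands beside the share of genes called in the same way among the 6741 genes of 10 FPKM or more at 0 h (the background) and, where it helps, among the 706 genes that fell 2-fold or more by 36/48 h without meeting the rule (the other fallen genes). All values of a condition summed to between 603278 FPKM, at 72 h, and 832607 FPKM, in 48 h +dox, and the median of the background lay between 26.9 and 30.3 FPKM in all 15 conditions.

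In 2i/LIF, an inhibitor of GSK3 raises beta-catenin signalling, an inhibitor of MEK blocks the FGF and ERK pathway, and LIF activates STAT3. Together they hold mouse pluripotent cells in the naive state of the early epiblast. Once they are removed, genes that depend on beta-catenin or STAT3 lose their input, signals blocked by the inhibitors return, and the naive network is dismantled. As a check of the labels, 24 naive pluripotency genes summed to 6719 FPKM at 0 h, 1541 at 48 h and 336 at 96 h. Most of the naive programme thus went one way, which sets the background for genes that came back.

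The fall of the members was steep and their return was gradual. Their median was 21.6 FPKM at 0 h, 5.70 (24 h), 4.30 (36 h), 4.56 (48 h), 9.93 (60 h), 12.6 (72 h) and 18.8 FPKM (96 h). The rule fixed the direction between 0, 36/48 and 72 h, whereas the values at 24, 60 and 96 h were not used by it. By 24 h, 87 of the 106 members were already called lower than at 0 h, against 9.29% of the background. By 60 h, 48 members were called higher than the 36/48 h mean, against 1.28%. Both comparisons share a timepoint with the rule and are descriptions. The lowest of the 7 values fell at 36 h for 54 members, at 24 h for 27, at 48 h for 21 and at 60 h for 4. For 95 members the 60 h value lay between those of 48 and 72 h, and 71 members rose at each step from 48 h to 96 h.

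**Figure D1:**
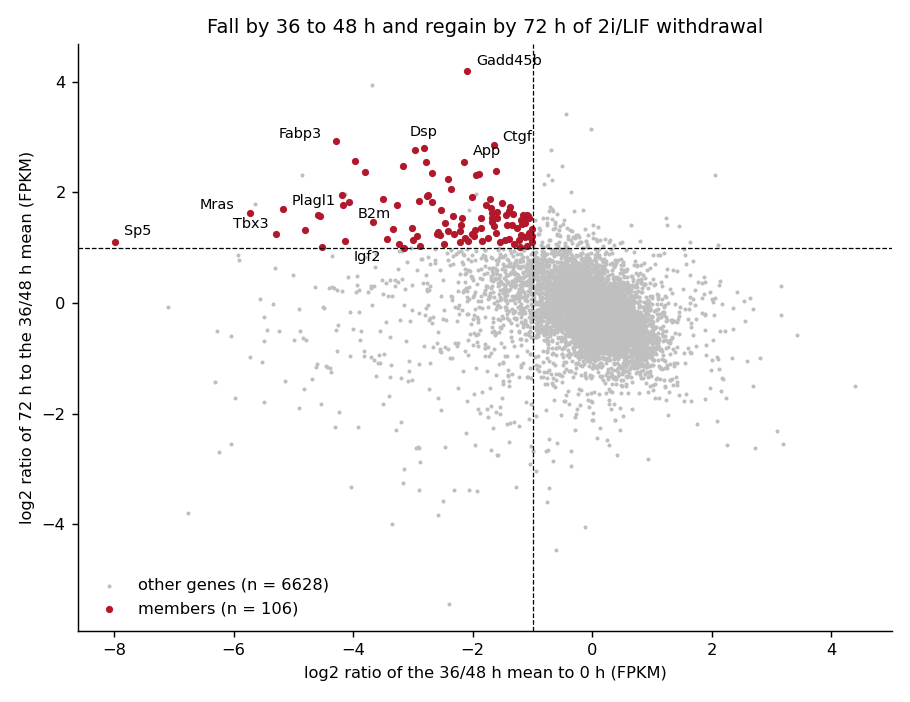
Each point is a gene of at least 10 FPKM at 0 h. The x axis is the log2 ratio of the 36/48 h mean to 0 h, the y axis the log2 ratio of 72 h to the 36/48 h mean, and dashed lines mark the 2-fold thresholds of the rule. The 106 members (red) fill the upper left, together with the 7 genes left out by name (grey).

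Of the background, 12.1% fell 2-fold or more by 36/48 h and 3.09% rose 2-fold or more from there to 72 h. The 72 h threshold was met by 13.8% of the 819 genes that fell, and 1.57% of the background met the whole rule. The rule used these contrasts, so the shares give only the size of the set. Just inside the thresholds were Pmepa1 with 10.0 FPKM at 0 h, Hist1h2bk with a 2.02-fold fall and Serpinf1 with a 2.001-fold rise. Just outside were Dusp14 with 9.99 FPKM, Acot13 with a 1.99-fold fall and Gng12 with a 1.99-fold rise, so that the members are the end of a continuous range. Outside the rule, the courses most like the members' mean z-score over the 7 timepoints were those of Add1, Itfg3, Mpzl1, Neo1 and Tm9sf4, with Pearson's r from 0.984 to 0.991 over 7 points of 1 table. Add1, for example, had 56.9 FPKM at 0 h, a 36/48 h mean of 25.5 FPKM and 45.3 FPKM at 72 h, a rise of 1.77-fold.

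How far the members came back differed widely. At 72 h, 71 members had 50% of their 0 h value or more, 31 had reached or passed it, and 17 were still under 25% of it. Called lower at 72 h than at 0 h were 35 members, against 13.7% of the background, and called higher were Gadd45b and Ctgf, 2 members against 3.14%. The rise went on after the last timepoint of the rule. From 72 to 96 h, 78 members rose by any amount, against 51.3% of the background. Called higher at 96 h than at 72 h were 16 members, against 1.63% of the background and 7.22% of the other fallen genes. Called lower were 5 members, against 2.66% and 7.08%. The median log2 ratio of 96 h to 72 h was 0.39 for the members and 0.01 for the background, and 49 members stood at or above their 0 h value at 96 h.

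**Figure D2:**
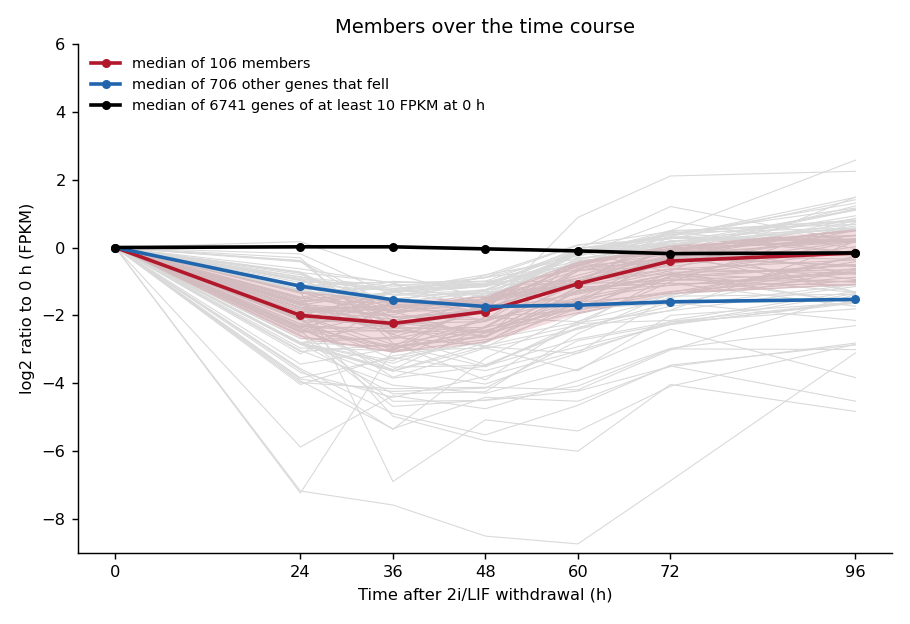
Each thin grey line is a member, drawn as the log2 ratio of its FPKM to its 0 h value (y axis) over time after 2i/LIF withdrawal in h (x axis). Thick lines are medians of the 106 members (red, with their quartiles shaded), of the 706 other fallen genes (blue) and of the 6741 background genes (black). The members' median was lowest at 36 h, at -2.24, and reached -0.16 at 96 h, whereas that of the other fallen genes went from -1.74 at 48 h to -1.53 at 96 h.

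The members were spread over the genome. Of the 103 found in Gencode M21 (mm10), 101 are protein-coding, while H19 and 5930412G12Rik are not, and they lie on 18 chromosomes with no more than 14 on any of them. Exons of Gm12942, Msl1, Phyhd1 and Poc1b overlap another gene on the same strand. Exons of 21 members overlap a gene on the other strand, among them Fabp3, Hexa, Pim1, Ctgf, Thbs1, Tbx3, Txnip and Igf2, and whether the counting used strand is not stated in the sources used here. The values of these members may hold reads of the neighbour.

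Promoters of 71 members were found in RefSeq (GRCm38.p6), and the 250 bases before their start sites were searched on both strands. The E-box CACGTG, a core site of basic helix-loop-helix factors that include regulators of lysosomal genes, was present in 9 members or 12.7%, against 10.8% of 5174 background genes and 6.86% of all 27025 genes of the table. The letters CTTTGAT, a core site of the TCF/LEF factors that act with beta-catenin, were present in Poc1b, Sp5 and Wwtr1, 3 members or 4.23%, against 2.65% and 3.72%. Both shares were near those of the background. The AP-1 letters TGACTCA were in 6 members or 8.45%, against 3.32% of the background and 5.16% of all genes. The GC box GGGGCGGGG was in 25 members or 35.2%, against 23.9% and 11.8%. Other letters were found in 29 members (CCAAT, 40.8% against 41.6% of the background and 37.5% of all genes), in 7 (TATAAA, 9.86% against 7.31% and 14.3%), in 2 (the STAT letters TTCCNGGAA, 2.82% against 1.18% and 1.09%) and in 1 (the CRE letters TGACGTCA, 1.41% against 3.38% and 1.77%). No member window held the TCF/LEF letters CTTTGAA, the octamer ATGCAAAT, the FOXH1 letters AATCCACA, the SMAD letters GTCTAGAC or the SRE motif. In that order, 3.73%, 1.28%, 0.483%, 0.29% and 0.0387% of the background hold them, and 5.19%, 1.81%, 0.862%, 0.2% and 0.074% of all genes. A match is a description of letters and no evidence of a bound site. Printed here, 5′ to 3′ along the gene with the matched letters in capitals, are windows with an E-box, those of Lgmn and Rcan1, and the TCF/LEF letters of Sp5, the member with the deepest fall. The E-box of Lgmn (chr12:102439093-102439342, minus strand) starts 49 bases before a start site, and that of Rcan1 (chr16:92466170-92466419, minus strand) 191 bases before one. The letters of Sp5 (chr2:70474673-70474922, plus strand) start 104 bases before one. Lgmn and Rcan1 have other start sites as well, and no E-box was found in the windows of those. In Gencode M21 the printed Lgmn and Rcan1 windows lie inside their own genes but in no exon, and the Sp5 window lies outside genes.
Lgmn: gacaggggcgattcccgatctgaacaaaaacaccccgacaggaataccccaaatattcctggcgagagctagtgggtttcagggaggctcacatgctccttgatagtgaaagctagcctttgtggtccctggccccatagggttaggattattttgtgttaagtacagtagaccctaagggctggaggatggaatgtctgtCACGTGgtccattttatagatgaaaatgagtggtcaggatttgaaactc
Rcan1: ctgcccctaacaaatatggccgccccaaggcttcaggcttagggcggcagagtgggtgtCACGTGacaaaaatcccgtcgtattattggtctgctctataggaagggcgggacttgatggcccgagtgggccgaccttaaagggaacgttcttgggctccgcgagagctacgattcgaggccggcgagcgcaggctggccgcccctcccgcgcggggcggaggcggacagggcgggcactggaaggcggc
Sp5: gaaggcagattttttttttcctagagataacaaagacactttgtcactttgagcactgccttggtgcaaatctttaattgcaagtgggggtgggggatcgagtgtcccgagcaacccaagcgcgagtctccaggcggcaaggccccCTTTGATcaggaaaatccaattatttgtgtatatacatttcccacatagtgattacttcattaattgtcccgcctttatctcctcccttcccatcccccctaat

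From here on, 7 values in a row are those at 0, 24, 36, 48, 60, 72 and 96 h. Genes of lipid handling came back to different degrees. Fabp3, which carries fatty acids in the cytoplasm, measured 194, 27.3, 9.75, 10.2, 33.4, 75.4 and 98.8 FPKM, a 19.5-fold fall to the 36/48 h mean followed by a 7.57-fold rise to 38.9% of 0 h at 72 h. Cpt1a, which brings long-chain fatty acids into mitochondria, measured 31.1, 3.80, 1.87, 1.58, 2.58, 5.86 and 2.18 FPKM and stood at 18.8% of 0 h at 72 h. Plin2, which coats lipid droplets, measured 29.1, 8.15, 8.77, 9.30, 20.2, 29.8 and 55.7 FPKM and ended above its starting level. Plin2 was picked after its values were seen, as were Lgmn, Gaa, Fuca2, Tead1, Wwtr1, Serpinh1, Hist1h1c and Rcan1 among the members named here, and those named only for an overlap or a promoter match.

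Enzyme genes of the lysosomal list, and 3 others picked after their values were seen, follow. Of 23 lysosomal list genes of 10 FPKM or more at 0 h, 13 fell 2-fold or more by 36/48 h, 3 rose 2-fold or more to 72 h, and 2, Hexa and Neu1, were members. These 2 of 13 stand beside the 13.8% of all fallen background genes that met the 72 h threshold, a similar share. Hexa, a subunit of the enzyme that trims gangliosides, measured 94.8, 21.3, 19.99, 20.9, 39.6, 50.5 and 66.4 FPKM. Neu1, a sialidase, measured 10.9, 2.72, 4.33, 5.92, 11.3, 15.1 and 18.8 FPKM. Both were on their way up at 60 h, but Hexa stayed below its 0 h level and Neu1 passed it. Outside that list, Lgmn, a protease, measured 48.7, 20.7, 11.8, 13.3, 22.2, 31.4 and 37.8 FPKM, and Gaa, an acid glucosidase, 30.8, 7.63, 4.26, 6.01, 9.50, 12.6 and 16.8 FPKM. Fuca2, a fucosidase also outside that list, measured 13.5, 2.41, 5.84, 6.82, 12.7, 12.9 and 19.1 FPKM. At 72 h these 3 stood at 64.4%, 40.7% and 95.3% of their 0 h level. The lysosomal list as a whole returned little, since its 24 genes summed to 2191 FPKM at 0 h, 876 (48 h), 1080 (72 h) and 1316 FPKM (96 h).

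The deepest fall and the lowest level at 72 h were those of a Wnt target. Sp5, a transcription factor gene induced by beta-catenin, measured 26.7, 0.185, 0.139, 0.0734, 0.0626, 0.227 and 3.10 FPKM. It met the rule at 72 h while far under 1 FPKM, and was above 1 FPKM again only at 96 h. Fzd10, a Wnt receptor, measured 17.8, 3.22, 0.767, 0.781, 0.947, 1.56 and 2.52 FPKM. Wls, which carries Wnt proteins to the cell surface, behaved otherwise and measured 13.9, 1.98, 1.11, 1.97, 5.75, 8.60 and 38.8 FPKM. Its 4.52-fold rise from 72 to 96 h was second among the members to the 13.6-fold rise of Sp5. Of 9 Wnt list genes of 10 FPKM or more at 0 h, 6 fell 2-fold or more by 36/48 h and 2, Sp5 and Fzd10, were members.

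Genes of the Yap pathway, junctions and matrix follow. Ctgf, a secreted matrix protein and classic target of Yap, measured 26.2, 20.1, 8.003, 8.72, 25.4, 60.7 and 29.6 FPKM and was 1 of 9 members with their peak at 72 h. Thbs1, a matrix protein, measured 41.6, 18.7, 8.55, 12.1, 22.2, 39.2 and 49.8 FPKM. Tead1, a DNA-binding partner of Yap, and Wwtr1, which encodes the Yap relative Taz, stood at 134% and 98.7% of their 0 h level at 72 h. Dsp, the desmoplakin of epithelial junctions, measured 10.6, 1.51, 0.877, 2.13, 5.09, 10.4 and 22.9 FPKM. Llgl2, a polarity gene and among the highest members, measured 182, 100.02, 61.8, 48.97, 141, 204 and 267 FPKM. These genes were above their 0 h level at 96 h, although Ctgf was called lower there than at 72 h. Atp1b1, the beta subunit of the sodium pump, measured 118, 60.6, 49.1, 44.2, 108, 124 and 47.7 FPKM and was lost again by 96 h. Lama1, a laminin of the embryonic basement membrane, measured 16.01, 3.72, 1.13, 2.05, 1.29, 3.999 and 5.21 FPKM. Of 13 genes of the actin, Yap and SRF list with 10 FPKM or more at 0 h, 2 fell and 5 rose 2-fold or more, and Ctgf and Thbs1 were the 2 that did both.

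Among transcription factors and signalling genes, 5 stood near or above their 0 h level at 72 h. Hes1, a repressor downstream of Notch, measured 83.7, 13.7, 9.88, 16.3, 42.3, 66.9 and 58.3 FPKM. Pim1, a kinase gene induced by STAT3, measured 72.1, 19.4, 22.3, 24.9, 61.99, 123 and 70.8 FPKM and thus passed its 0 h level at 72 h of 2i/LIF withdrawal. Of 12 genes of the LIF and STAT3 list with 10 FPKM or more at 0 h, 8 fell 2-fold or more by 36/48 h, 2 rose 2-fold or more to 72 h, and Pim1 was the single member. Bhlhe40, a repressor of the clock circuit, measured 19.05, 1.16, 2.08, 2.78, 6.70, 16.6 and 7.63 FPKM, and Jdp2, an AP-1 family repressor, 14.3, 2.66, 1.86, 2.30, 11.6, 12.2 and 21.1 FPKM. Klf10, an early target of TGF-beta signals, measured 45.3, 15.8, 22.7, 20.9, 28.8, 52.1 and 57.9 FPKM. These 5 genes stood between 79.97% (Hes1) and 171% (Pim1) of their 0 h level at 72 h.

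Others, among the 10 deepest falls, came back little. Tbx3, a naive pluripotency factor, measured 51.5, 12.6, 1.64, 0.994, 0.803, 3.14 and 1.81 FPKM. Tfap2c, a factor of trophoblast and germ cells, measured 38.3, 2.60, 2.02, 2.16, 5.71, 8.05 and 12.3 FPKM. Mras, a Ras family GTPase, measured 16.7, 6.86, 0.140, 0.493, 0.392, 0.978 and 2.31 FPKM. With the homeobox gene Nkx6-2 (17.3, 1.13, 0.425, 0.807, 0.746, 1.53 and 0.747 FPKM) they stood between 5.87% (Mras) and 21.05% (Tfap2c) of their 0 h level at 72 h. Meis2, a homeobox factor of the retinoic acid list, lay in between at 35.6% and measured 16.6, 13.5, 2.35, 1.11, 3.68, 5.92 and 13.7 FPKM. Of 23 naive pluripotency list genes of 10 FPKM or more at 0 h, 18 fell 2-fold or more by 36/48 h, and Tbx3 was the single member.

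**Figure D3:**
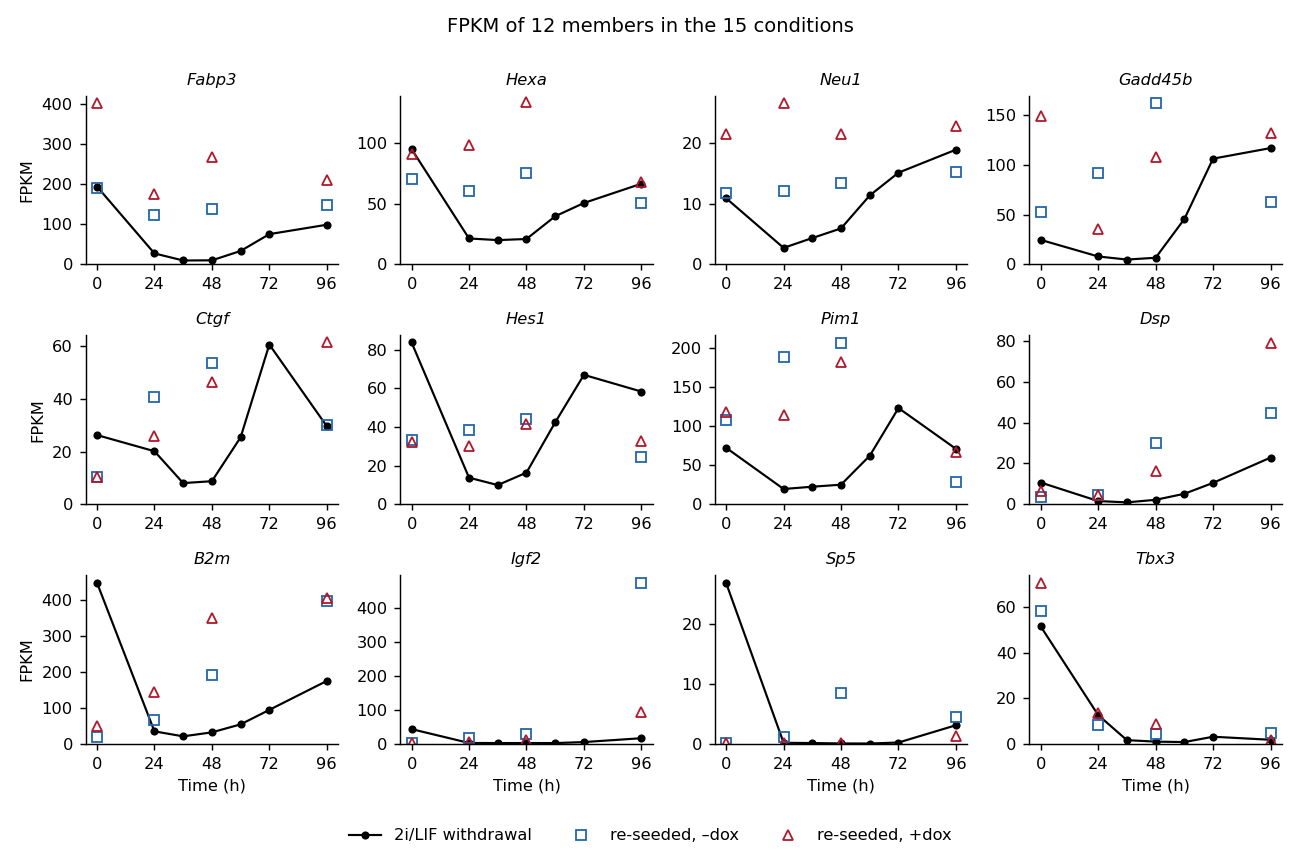
FPKM of 12 members (y axes, each from 0) over time in h (x axes). Black points and lines are the 7 timepoints of 2i/LIF withdrawal, blue squares are cells re-seeded without dox and red triangles cells re-seeded with dox, placed at the time of withdrawal before re-seeding. Hexa, Hes1 and Pim1 dip and come back, Sp5 and Tbx3 stay near the bottom of the time course, and B2m and Igf2 are far lower in 0 h –dox than at 0 h.

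Stress genes included the member with the strongest return. Gadd45b, an inducible regulator of stress kinase signalling, measured 24.7, 7.99, 4.88, 6.69, 45.6, 106 and 117 FPKM. Its 18.4-fold rise from the 36/48 h mean to 72 h was the largest among the members, and it ended 4.74-fold above 0 h. Txnip, an inhibitor of thioredoxin and of glucose uptake, measured 293, 94.4, 137, 133, 204, 368 and 817 FPKM. Ddit3, the stress factor CHOP, measured 58.8, 7.54, 7.16, 19.6, 27.99, 30.2 and 35.05 FPKM and was the single member of the ATF4 stress list, where 5 of 17 genes of 10 FPKM or more at 0 h fell and 1 rose 2-fold or more. The hypoxia and glycolysis list had 2 members among 20 such genes. Vegfa, the vascular growth factor, measured 29.2, 5.78, 8.34, 10.9, 21.7, 29.9 and 64.05 FPKM, and P4ha2, a collagen prolyl hydroxylase, 15.7, 2.26, 2.53, 4.33, 6.07, 9.08 and 16.02 FPKM.

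Histone genes rose late. Hist1h2bb measured 157, 72.5, 77.4, 74.01, 74.8, 219 and 141 FPKM, Hist1h2bk 97.2, 47.6, 47.5, 48.8, 48.4, 121 and 86.7 FPKM and Hist1h1c 74.96, 29.4, 26.2, 30.8, 24.1, 63.6 and 58.97 FPKM. All 3 were close to or below their 48 h value at 60 h, when 96 of the 106 members were above theirs, and all 3 peaked at 72 h among the times after withdrawal. Many histone genes are near-identical copies and lack a poly(A) tail, so values from polyadenylated RNA are uncertain for single copies.

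Msi1, App, S100a1, Ap3b2 and Slit2 came back to different degrees. Msi1, an RNA-binding protein of neural progenitors, measured 19.4, 2.21, 6.24, 7.99, 17.3, 21.4 and 41.7 FPKM. App, the amyloid precursor protein, measured 33.5, 4.78, 4.42, 10.7, 30.2, 44.3 and 74.9 FPKM. S100a1, a calcium-binding protein, measured 25.1, 2.04, 0.610, 2.61, 6.45, 9.54 and 16.4 FPKM. Ap3b2, a neuronal adaptor subunit (25.4, 0.431, 1.23, 0.942, 1.67, 3.23 and 5.15 FPKM), and Slit2, a guidance cue (12.3, 2.07, 0.479, 0.546, 0.726, 1.55 and 1.53 FPKM), by contrast stayed under 25% of their 0 h value at all 6 later times. The neurofilament genes Nefl and Nefm overlap each other on opposite strands.

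The imprinted list had 3 members among 12 genes of 10 FPKM or more at 0 h. Igf2, a growth factor gene expressed from the paternal allele, measured 43.5, 2.75, 2.43, 2.51, 2.37, 5.35 and 16.7 FPKM. H19, the neighbouring non-coding RNA expressed from the maternal allele (chr7:142575529-142578143, minus strand), measured 82.4, 20.6, 33.4, 44.8, 56.8, 116 and 491 FPKM. Plagl1, an imprinted transcription factor gene, measured 52.8, 4.44, 1.78, 1.15, 2.10, 4.77 and 7.22 FPKM. H19 passed its 0 h level by 72 h, whereas Igf2 and Plagl1 did not reach theirs by 96 h.

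Of all background genes, 1.57% are members. Single members came from the lists of epithelial junctions (1 of 14 genes of 10 FPKM or more at 0 h, Dsp), immediate early genes (1 of 8, Klf10), insulin and FOXO genes (1 of 5, Txnip), interferon genes (1 of 9, B2m), redox genes (1 of 19, Txnip), matrix and integrins (1 of 20, Lama1), neurectoderm (1 of 4, Msi1), retinoic acid genes (1 of 3, Meis2), Notch genes (1 of 1, Hes1) and streak genes (1 of 1, Tbx3). The extraembryonic list held 2 of 5, Lama1 and Tfap2c. With so few genes a list, a single member already puts a list above that share. No member came from the lists of fibroblast (14 genes of 10 FPKM or more at 0 h), formative pluripotency (6), germline (10), Nodal and FGF (7), BMP (1), cell cycle (11), cholesterol synthesis (24), p53 (17) and 2-cell-like genes (1).

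Fibroblast markers were highest at 0 h, the time from which the fall of the members was counted. The 25 markers summed to 1995 FPKM at 0 h, 721 (24 h), 351 (36 h), 333 (48 h), 251 (60 h), 342 (72 h) and 552 FPKM (96 h). In 0 h –dox they summed to 343 FPKM, with Col1a1 at 1.45 FPKM against 229 FPKM at 0 h, Col3a1 at 0.116 against 201 FPKM, and Lum listed at 0 against 14.8 FPKM. All 14 markers of 10 FPKM or more at 0 h fell 2-fold or more by 36/48 h, and none was a member. Their part in the 0 h values of the members was not tested, and in a bulk sample fewer cells of a type and less RNA per cell cannot be told apart.

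The 0 h –dox condition was not used by the rule and gives another starting level, in serum/LIF. It is set here against 0 h and 36/48 h values on which the members were chosen, high and low in turn, so the choice itself moves these counts away from those of the background, and they are descriptions. The median of the members was 12.3 FPKM there, against 21.6 FPKM at 0 h. In 0 h –dox, 42 members were called lower than at 0 h, against 7.46% of the background and 33.0% of the other fallen genes. The 3 members called higher, against 3.19% of the background, were Gadd45b, H19 and Txnip. In 70 of the 106 members the 0 h –dox value was 2-fold or more above the 36/48 h mean, against 10.2% of the background and 55.1% of the other fallen genes. These 70 had a median of 14.5 FPKM in 0 h –dox, 3.98 FPKM at 36/48 h and 12.6 FPKM at 72 h. Among them were Fabp3 with 189.9 FPKM in 0 h –dox, Tbx3 with 58.1, Cpt1a with 27.8, Hexa with 70.4, Lgmn with 47.9, Pim1 with 107, Llgl2 with 147 and Vegfa with 56.5 FPKM. For the other 36 members the medians were 7.5 (0 h –dox), 5.81 (36/48 h) and 13.8 FPKM (72 h). Members were split by their 0 h –dox value against their 36/48 h mean. Differences between the 70 and the 36 in those medians therefore come from the split itself and show nothing further. Of the 5 members with the largest gaps between both starting levels, 4 (Sp5, Efemp1, B2m and Nkx6-2) were among these 36 and Plagl1 among the 70. A low 0 h –dox value favours a place among the 36, so this count is also shaped by the split. Sp5 had 0.0892 FPKM in 0 h –dox against 26.7 at 0 h, and Efemp1, a matrix glycoprotein, 0.213 against 10.7. B2m, the light chain of MHC class I, had 19.2 against 449 FPKM, and Plagl1 3.32 against 52.8. With 0 h –dox in place of 0 h the rule held 131 genes, of which 55 are members.

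**Figure D4:**
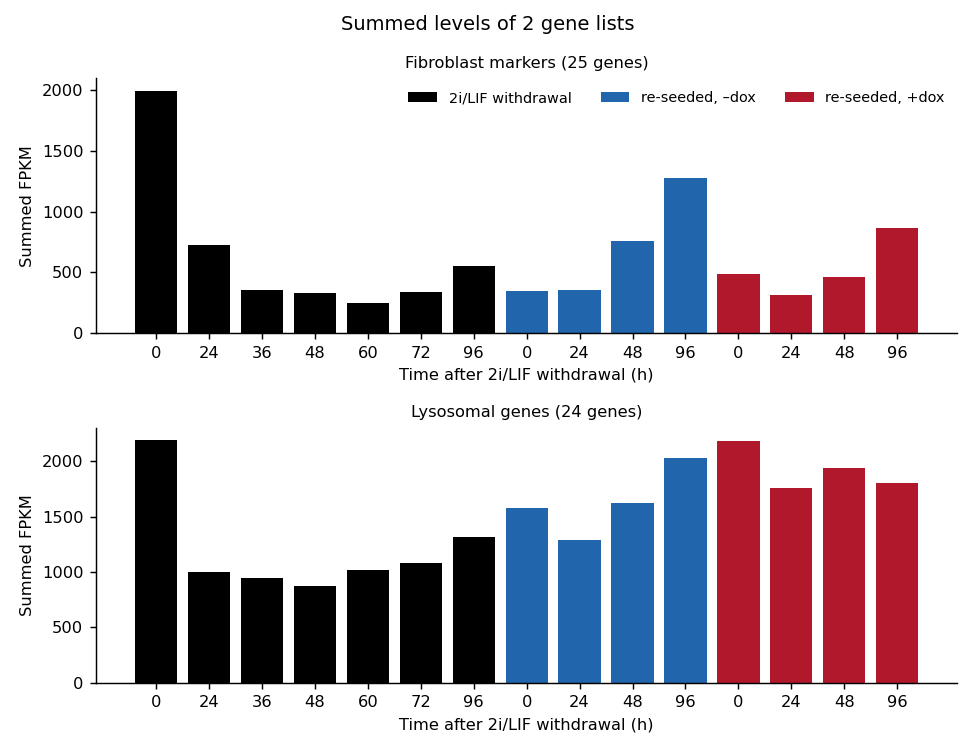
Summed FPKM (y axes, from 0) of the 25 fibroblast markers and of the 24 lysosomal genes in the 15 conditions, by time after 2i/LIF withdrawal in h (x axes). Black bars are the time course, blue bars cells re-seeded without dox and red bars cells re-seeded with dox. The fibroblast markers were highest at 0 h, with 1995 FPKM, against 343 FPKM in 0 h –dox, where the lysosomal genes had 1580 FPKM against 2191 FPKM at 0 h.

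Most members were above their low level after re-seeding in serum/LIF without dox. In 24 h –dox, 56 members were called higher than at 24 h, against 4.87% of the background and 6.37% of the other fallen genes. In 48 h –dox, 89 members were called higher than at 48 h, against 8.41% and 27.1%. The second of these holds the 48 h value that the rule used, and in both the re-seeded cells were 48 h older. In 96 h –dox, 27 members or 25.5% were called higher than at 96 h, against 5.96% of the background and 23.1% of the other fallen genes, a share near that of the members. Called lower were 11 members or 10.4%, against 6.41% and 6.52%. The members' median was 12.3 FPKM in 0 h –dox, 11.9 (24 h –dox), 19.1 (48 h –dox) and 25.1 FPKM (96 h –dox). Dsp had 2.13 FPKM at 48 h and 30.2 in 48 h –dox, and Gadd45b 6.69 and 162. Plin2 had 9.30 FPKM at 48 h and 159.8 in 48 h –dox, and Phldb2, a protein of the cell cortex, 2.49 and 88.1. In 96 h –dox, Igf2 reached 474 FPKM against 16.7 at 96 h, and H19 11602 against 491 FPKM. The fibroblast markers summed to 760 (48 h –dox) and 1279 FPKM (96 h –dox), of which Sparc, a gene of many cell types, made up 270 and 405 FPKM, and Col1a1 was at 4.97 and 33.2 FPKM. Their part in the members' levels was not tested.

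Induction of OSKM divided the members. A total of 56 members were called between +dox and –dox at 1 or more of the 4 times, 23 of them only higher, 25 only lower and 8 in both directions, and 50 never were. In cells re-seeded from 0 h, 15 members were higher in +dox, against 1.59% of the background, and 5 lower, against 1.79%. From 24 h, 5 were higher, against 1.34%, and 10 lower, against 0.801%. From 48 h, 8 were higher, against 3.6%, and 21 lower, against 1.71%. From 96 h, 10 were higher, against 4.26%, and 20 lower, against 3.68%. The members called from 0 h were thus mostly higher and those called from 24 h on mostly lower. With all conditions scaled to equal sums, an alternative chosen after seeing the data, the numbers higher and lower became 10 and 7 (0 h), 4 and 12 (24 h), 5 and 22 (48 h) and 5 and 24 (96 h). The median log2 ratio of +dox to –dox over the members was 0.30 from 0 h, -0.08 (24 h), -0.21 (48 h) and -0.12 (96 h), beside 0.11, 0.04, 0 and 0.06 over the background. Of the other fallen genes, 5.95% (0 h), 7.08% (24 h), 18.1% (48 h) and 12.9% (96 h) were higher in +dox, and 2.12%, 1.42%, 4.67% and 13.7% were lower. From 48 h the members had 21 lower against 8 higher, where the other fallen genes had 33 lower against 128 higher, and this contrast was not tested. All genes of 1 FPKM or more in the higher of a pair were also taken in place of the background. The share called then ran from 2.87% to 11.1% over these +dox comparisons. It ran from 2.87% to 17.0% with those of the time course and of –dox included. Higher in +dox were 14.2% of members beside 3.62% of these genes from 0 h and 4.72% beside 2.87% from 24 h. From 48 h it was 7.55% beside 6.56%, and from 96 h 9.43% beside 6.67%. Lower were 4.72% beside 5.61% (0 h), 9.43% beside 3.4% (24 h), 19.8% beside 6.46% (48 h) and 18.9% beside 11.1% (96 h). Members lower from 0 h and higher from 48 h were thus near those shares.

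The 3 imprinted members differed in their response. H19 was lower at all 4 times, with 65.6 FPKM in +dox against 189 in –dox from 0 h, 166 against 1256 (24 h), 161 against 759 (48 h) and 2214 against 11602 (96 h). Igf2 had 3.08 FPKM in +dox against 4.01 in –dox from 0 h, 5.16 against 18.3 (24 h), 10.7 against 28.3 (48 h) and 93.5 against 474 (96 h), and was called lower at the last 3 times. Plagl1 was called higher from 0 h and lower from 24 and 48 h, with 6.99 FPKM in +dox against 3.32 in –dox from 0 h, 2.18 against 5.89 (24 h), 9.78 against 21.7 (48 h) and 27.3 against 34.1 (96 h). Ap3b2, outside that list, was lower at all 4 times, by 3.98-fold, 2.56-fold, 3.68-fold and 9.54-fold in order of time. Its values were low from 0 h (0.732 FPKM in +dox against 2.91 in –dox) and from 96 h (0.26 against 2.48).

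From 48 h, Sp5 had 0.113 FPKM in +dox against 8.48 in –dox, and Phldb2 8.65 against 88.1. Wls had 8.81 against 34.9 FPKM and Thbs1 26.1 against 85.7. Efemp1 had 6.85 against 45.95 FPKM, Serpinh1, a collagen chaperone, 71.6 against 249, and Meis2 0.817 against 4.12. These are only some of the 21 members called lower from 48 h, which also include Ap3b2, 5930412G12Rik, Nefm and Plin2. The kinds of protein they encode were not counted. The fibroblast markers summed to 463 FPKM in +dox and 760 FPKM in –dox from 48 h, with Col1a1 at 2.27 and 4.97 FPKM, and their part in these differences was not tested. From 96 h, Tfap2c had 16.6 FPKM in +dox against 82.5 in –dox.

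Lipid genes went both ways. Fabp3 had 401 FPKM in +dox against 189.9 in –dox from 0 h and was called higher there. Cpt1a was called higher from 24 h (14.5 against 5.70 FPKM) and 48 h (8.89 against 2.59 FPKM) but lower from 96 h (0.929 against 2.03 FPKM). Plin2 was called lower from 48 h (73.4 against 159.8 FPKM) and 96 h (61.2 against 125 FPKM). Of the enzyme genes named above with the lysosomal list, Neu1 and Gaa were called higher, each from 1 time. Hexa, Lgmn and Fuca2 were called from none. Neu1 had 26.5 against 11.98 FPKM from 24 h, and Gaa had 33.3 against 15.4 from 48 h. Hexa was 1.29-fold (0 h), 1.63-fold (24 h), 1.77-fold (48 h) and 1.35-fold (96 h) higher, short of 2-fold each time. The 24 lysosomal list genes summed to 2185 FPKM in +dox against 1580 in –dox from 0 h, 1760 against 1286 (24 h), 1936 against 1621 (48 h) and 1803 against 2029 FPKM (96 h).

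Lama1, B2m, Ddit3 and S100a1 were among the others called higher in +dox. Lama1 was called higher at 3 of the 4 times, with 23.03 FPKM in +dox against 8.61 in –dox from 0 h, 5.19 against 3.30 (24 h), 7.92 against 2.21 (48 h) and 16.2 against 6.17 (96 h). B2m had 49.1 against 19.2 FPKM from 0 h and 146 against 66.99 from 24 h. From 0 h, Ddit3 had 201 against 63.1 FPKM and S100a1 27.99 against 8.34. Ddit3 was called from no other time. Of the other stress genes named above, Txnip was called lower from 0 and 24 h and higher from 96 h. Gadd45b was called higher from 0 and 96 h and lower from 24 h. Tbx3 went both ways, with 8.76 against 4.33 FPKM from 48 h and 1.53 against 4.99 from 96 h.

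**Figure D5:**
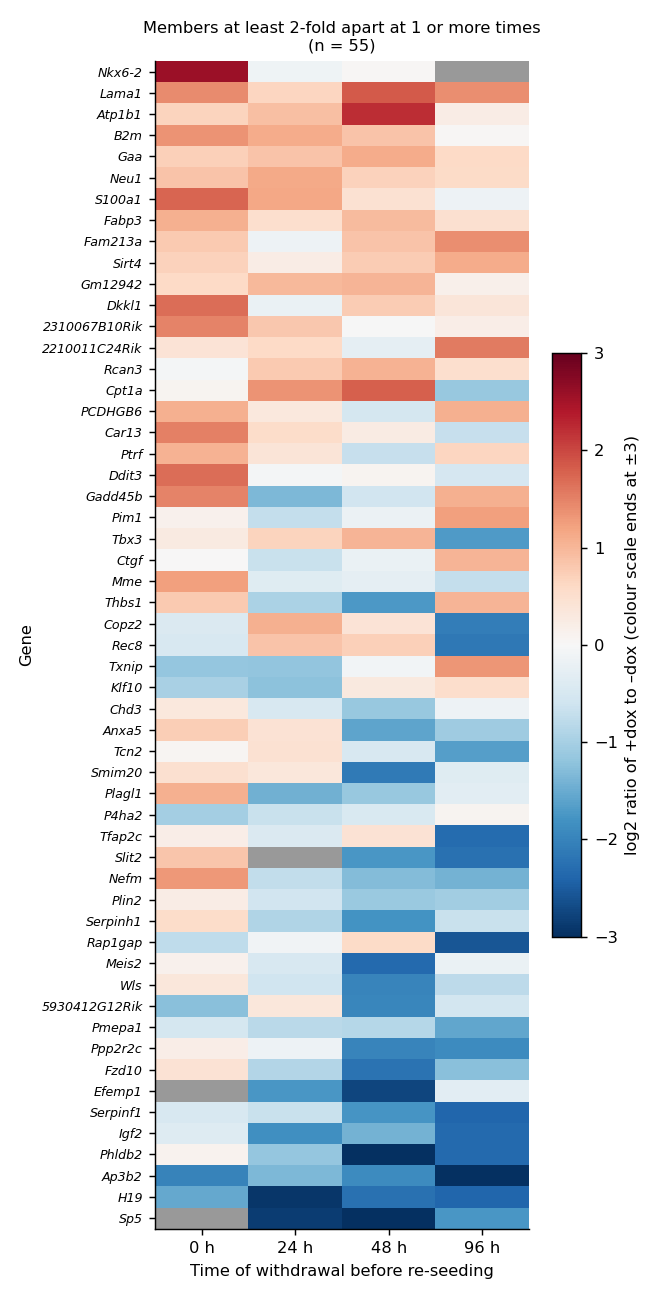
Colour is the log2 ratio of +dox to –dox FPKM of 55 of the 56 members that were 2-fold or more apart at 1 or more times, with genes in rows, ordered by their mean ratio, and time of withdrawal before re-seeding in columns. Red is higher in +dox and blue lower, and grey cells have both values under 1 FPKM. H19 and Ap3b2 are blue in all 4 columns, and Lama1 is red in all 4 but under 2-fold at 24 h.

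Of the genes left out by name, Nanog had 227 FPKM at 0 h, 6.45 (48 h), 38.9 (72 h) and 14.5 FPKM (96 h). Nodal had 30.5, 7.16, 30.9 and 13.9 FPKM at these times, and Slc2a3, a glucose transporter, 338, 27.7, 404 and 890 FPKM.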

How the data were processed

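Polyadenylated RNA of 30 samples in 15 conditions was measured. By the study's methods, the authors mapped reads to mm10 with TopHat2 2.0.14 and Gencode M4, quantified with Cufflinks 2.2.1 and assessed expression with Cuffdiff. The authors deposited 1 FPKM value per gene and condition, and how the 2 replicates became 1 value is not given in the sources used here. How libraries were scaled to each other is not given in the sources used here. The table's columns of the authors' own calls (groups of dynamic genes and response to dox) were not used.

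FPKM values were taken as deposited and ratios made without a pseudocount, with Python 3.11.15, numpy 2.4.6, pandas 2.3.3 and matplotlib 3.10.9. Samples were grouped by their labels. With 1 value per condition and depth unknown, no test or interval was possible. The members and the 28 gene lists were chosen with earlier results of these data known. Named were members at the extremes of 0 h level, fall, regain, change after 72 h, 72 h to 0 h, 0 h –dox to 0 h and +dox to –dox, list members, genes next to a threshold or left out by name, and the 5 most like outside genes. Others are marked as picked after their values were seen. The planned background was all genes of 1 FPKM or more, and genes of 10 FPKM or more at 0 h were used instead, since members have that level. The rule was tested on simulated data. Alternatives were other thresholds, timepoints, scalings, an added 1 FPKM and, chosen after seeing the data, equal sums, 0 h –dox in place of 0 h and a part of the members. Values of 1 member, which is counted, are not reported here.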

Additional observations from a re-analysis of the deposited data

Results flagged for a closer look

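Of the members, 8 were called higher in +dox than in –dox from one time of withdrawal and lower from another, and with 1 value per condition the difference between times was not tested. In 4 of them the higher value of each pair was 10 FPKM or more. Gadd45b had a log2 ratio of +dox to –dox of 1.49 from 0 h and 1.08 from 96 h, but -1.35 from 24 h. Txnip had 1.33 from 96 h, but -1.16 from 0 h and -1.19 from 24 h. Thbs1 had 1.02 from 96 h and -1.72 from 48 h. Nefm, a neurofilament gene that overlaps Nefl on the other strand, had 1.31 from 0 h and -1.31 from 48 h. In the other 4 the higher value was under 10 FPKM at 1 or more of the times, with Plagl1 at 1.08 from 0 h and -1.43 from 24 h, Copz2 at 1.07 from 24 h and -2.07 from 96 h, Cpt1a at 1.78 from 48 h and -1.13 from 96 h, and Tbx3 at 1.02 from 48 h and -1.70 from 96 h.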

How the results depend on the processing

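No paired analysis was possible because the table holds 1 value per condition and no replicate columns, and for the same reason leaving out replicates was not run. Of 111 alternative values over 21 results, 78 stayed within 1.5 times the main count or 0.1 of the main log2 median, and 33 moved. A count cannot change sign, and 0 of the medians did. The number of genes depended on the thresholds, with 190 for 5 FPKM and 55 for 20 FPKM at 0 h, 348 at 1.5-fold, 35 at 3-fold, 51 with 60 h and 194 with 96 h in place of 72 h. With all conditions scaled to equal sums, chosen after seeing the data, 194 genes met the rule, 93 of them members. That scaling moved the median of all genes by 0.37 (72 h to 36/48 h) and 0.24 (0 h –dox to 0 h) on the log2 scale, and by -0.23, -0.11, -0.1 and -0.18 for +dox to –dox from 0, 24, 48 and 96 h. It gave members' medians of 0.28 (96 h to 72 h), -0.47 (0 h –dox to 0 h) and, for +dox to –dox, 0.07 (0 h), -0.19 (24 h) and -0.3 (96 h), with 5 members higher in 0 h –dox and 5 each higher in +dox from 48 and 96 h.

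At 1.5-fold, 80 members were higher at 60 h than at 36/48 h, 44 higher and 13 lower at 96 h than at 72 h, and 8 higher in 0 h –dox. In +dox, 35 were then higher and 8 lower from 0 h, 18 and 25 from 24 h, 18 and 34 from 48 h, and 17 and 34 from 96 h. With 5 FPKM required, or with 1 FPKM added, 3 were lower in +dox from 0 h. The 70 members above 36/48 h in 0 h –dox are a smaller set by construction, and were chosen on their 0 h –dox value. Among only these, 16 were lower in 0 h –dox. In +dox, 9 of them were higher from 0 h, and 6 and 10 lower from 24 and 48 h. Where no cause is given, the cause was not tested.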
